A study of Homo sapiens with 12 samples.

Results

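The calpain family was examined in HK2 cells through 9 genes that were taken by symbol from the deposited TPM, a transcript level that is scaled by gene length and to the same sum in each library. They were 7 catalytic calpains (CAPN12, CAPN1, CAPN2, CAPN5, CAPN7, CAPN10 and CAPN15), the small regulatory subunit CAPNS1 and the inhibitor calpastatin, CAST. All 9 were among the 14639 genes, of 62703 in the files, that reached 1 TPM in no fewer than 3 of the 12 libraries. CAPN12 was picked because it was high in si-FGF9 compared with NG, and CAPN1, CAPN2, CAPN5, CAPN7, CAPN10, CAPN15, CAPNS1 and CAST because they reached this minimum. The values of si-FGF9 against NG are therefore given as a description, without a test. The study asked how the growth factor FGF9 affects renal tubular epithelial cells under normal and high glucose. HK2 is an immortalised line from the human proximal tubule, so that all 12 libraries come from 1 cell line. The 3 NG libraries are from cells with a control vector in 5.5 mM glucose, the 3 HG libraries from cells in 50 mM glucose, the 3 si-FGF9 libraries from cells given an siRNA to FGF9 in 5.5 mM glucose, and the 3 HG+OE-FGF9 libraries from cells in 50 mM glucose given a lentivirus vector that overexpresses FGF9. The study's own account of its results differs from the labels for NG and names mannitol in that medium, so that whether NG was matched to HG in osmolarity is unclear. A non-targeting siRNA is not described, and the labels do not say whether HG received the control vector or whether replicates came from separate cultures. The p-values thus measure the spread between these libraries, which may be technical.

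Calpains are cysteine proteases of the cytosol that are switched on by calcium and cut their substrates at limited sites. CAPN1 (mu-calpain) and CAPN2 (m-calpain) work as pairs with CAPNS1 and are held in check by calpastatin, whereas CAPN5, CAPN7, CAPN10, CAPN12 and CAPN15 are less studied and several of them lack the domain that binds the small subunit. In tubular epithelium calpains are known for their part in ischaemic cell injury and in the turnover of cell adhesions.

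The catalytic calpains share the codon of the active-site cysteine, and the bases around it show how far the genes have diverged. No 2 of the 9 genes shared a run of 50 bases in any annotated transcript of GENCODE release 29 on GRCh38. The 39 bases of coding sequence around that codon, which stands in capitals, are given for both conventional calpains, for CAPN12 and for CAPN7, which kept the fewest bases of CAPN2.
CAPN2: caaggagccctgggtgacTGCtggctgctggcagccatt
CAPN1: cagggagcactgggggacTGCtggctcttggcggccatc
CAPN12: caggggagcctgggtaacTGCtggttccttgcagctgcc
CAPN7: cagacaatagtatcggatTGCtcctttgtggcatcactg
Of these 39 bases, CAPN1 shares 32 with CAPN2, CAPN12 shares 27 and CAPN7 shares 18. The codon is number 105 in CAPN2 and CAPN12, 115 in CAPN1 and 290 in CAPN7.

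FGF9 itself was listed at 0 TPM in every NG, HG and si-FGF9 library, and at 3.34, 4.03 and 3.82 TPM in HG+OE-FGF9. The overexpression was thus seen, but the knockdown could not be checked in the TPM. By RT-qPCR the study lists FGF9 as lower in si-FGF9 than in NG, short of its own significance level. Of 13 tubule and epithelial markers 8 reached the minimum TPM. The keratins KRT8, KRT18 and KRT19 lay at 210.71 TPM or above in every library, while CUBN, LRP2 and SLC34A1, markers of the mature proximal tubule, stayed at or below 0.15 TPM. GGT1, a brush-border enzyme, ranged from 71.65 to 195.31 TPM and PAX8, a renal transcription factor, from 19.72 to 79.06 TPM, while CDH1 (E-cadherin) stayed at or below 0.28 TPM. The labelled cell type was thus met by some of its markers and not by others. The summed TPM of the 13 markers was 1390.5 to 1494.2 for NG, 1100.4 to 1708.0 for HG, 1211.3 to 1602.1 with si-FGF9 and 1194.2 to 1241.9 with HG+OE-FGF9, so that the groups overlapped except HG+OE-FGF9 with NG. Groups were compared with limma on log2(TPM + 1), and a gene passed the test, or was called, when its log2 difference was 1 or more, up or down, with a p under 0.01 before adjustment. Fold changes of all genes followed GC content, with a Spearman's rho across 14191 genes of 0.64 between HG and NG, 0.57 between si-FGF9 and NG and 0.29 between HG+OE-FGF9 and HG. Genes are not independent replicates, and no p is given. Values after the trend with GC content had been subtracted from every library are therefore printed beside the results below, as values after the correction.

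CAPN12, a calpain best known from hair follicles and skin, went from near 0 in NG to the second highest mean of the catalytic calpains in si-FGF9. Its TPM was 0.35, 0.16 and 0.00 in NG, and 111, 112 and 129 in si-FGF9. All 3 si-FGF9 libraries lay far above every other library, and they differed little from each other, with a mean of 117.3 ± 10.1 TPM (SD, n = 3). The difference from NG was 6.67 on the log2(TPM + 1) scale, and 6.49 after the correction for GC content. A ratio of TPM is not given, because the NG values lie next to the lowest the files can hold.

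The other groups were split within themselves. In HG the TPM of CAPN12 was 0.41, 18.08 and 0.36, and in HG+OE-FGF9 it was 9.84, 10.02 and 0.57. HG replicate 2 and HG+OE-FGF9 replicates 1 and 2 were thus clearly above the NG level, whereas HG replicates 1 and 3 and HG+OE-FGF9 replicate 3 stayed below 1 TPM. The log2 difference was 1.52 ± 0.92 (SE) for HG versus NG and 0.79 ± 0.92 between HG+OE-FGF9 and HG, and neither passed the test (limma, Benjamini-Hochberg adjusted p = 0.195 and 0.594). Without HG replicate 2, the first fell to 0.25 and the second rose to 2.05, which then passed the thresholds of the test. CAPN12 was chosen on the NG libraries, which also enter HG versus NG.

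**Figure D1:**
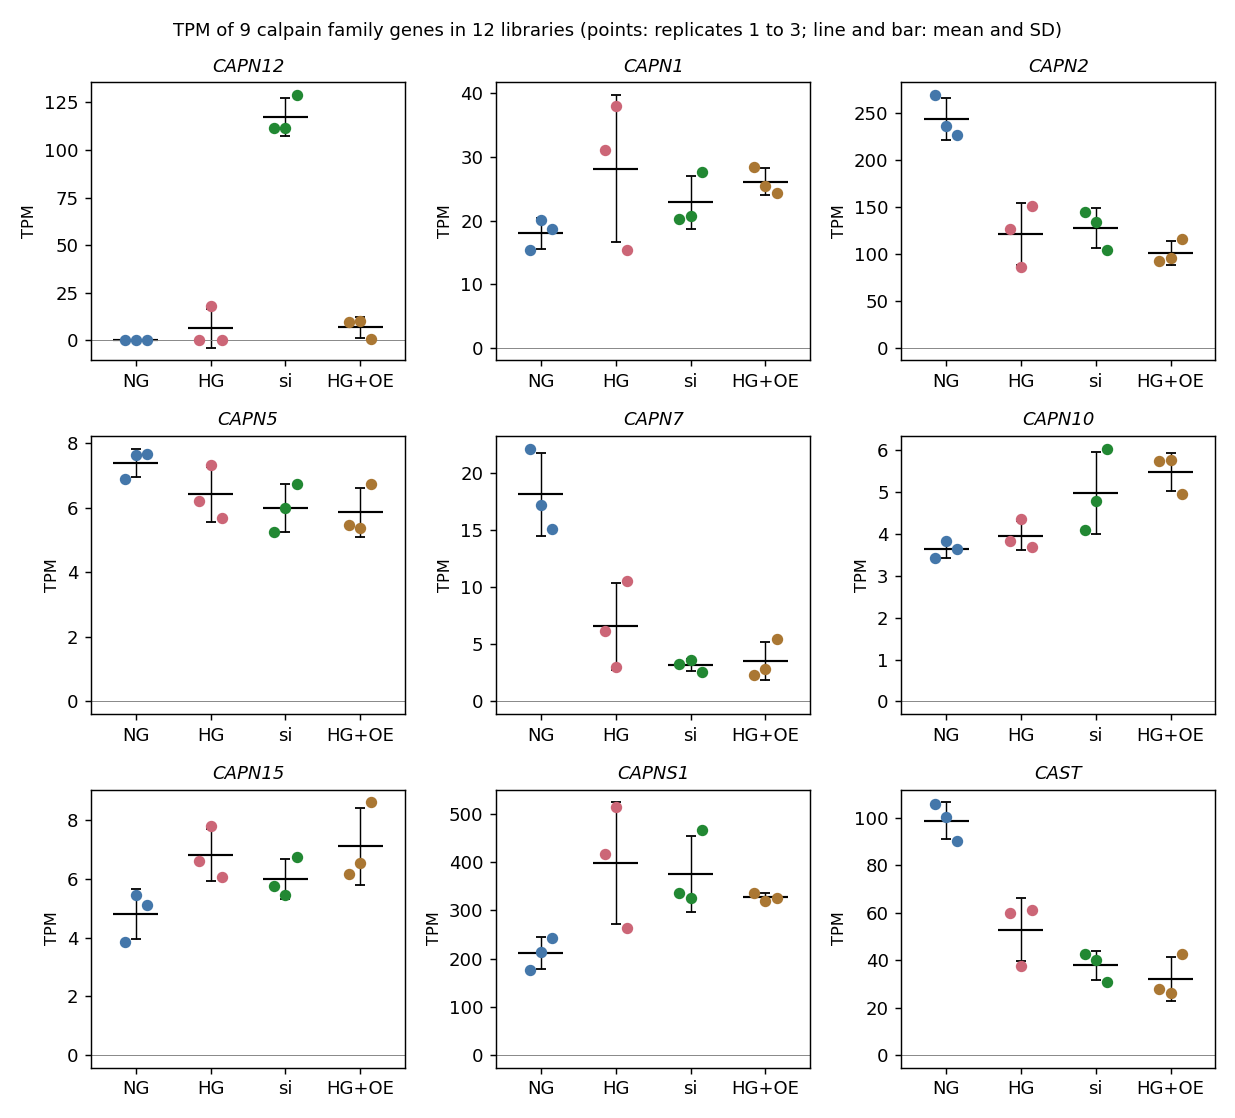
TPM of the 9 calpain family genes in the 12 libraries, with 1 panel a gene, its own vertical axis from 0 in TPM (drawn slightly below 0 where the SD reaches there), and the 4 groups along the horizontal axis (si is si-FGF9 and HG+OE is HG+OE-FGF9). Points are replicates 1 to 3 from left to right, the line is the mean and the bar the SD. CAPN12 is above 111 TPM only in the si-FGF9 libraries, while CAPN2, CAPN7 and CAST are highest in NG.

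CAPN12 lies on the minus strand of chromosome 19 of GRCh38, at chr19:38730187-38769904, and meets the end of ACTN4 (alpha-actinin 4, a crosslinker of actin filaments), which is on the plus strand at chr19:38647649-38731583. The spans of both genes overlap by 1397 bases. Exons of both genes share 868 bases, which is 14.55% of the 5966 exonic bases of CAPN12. A stretch of 30 bases around the stop codon of CAPN12, at chr19:38730849-38730878, lies in its last exon and in the long last exon of ACTN4, past the coding sequence of ACTN4. They are shown 5′ to 3′ on each strand, with the stop codon of CAPN12 in capitals, because a read from here cannot be given to 1 of the genes unless its strand is known.
CAPN12: tggatggaggtggccaccttctccTAGgat
ACTN4: atcCTAggagaaggtggccacctccatcca
These 30 bases were found in 0 transcripts of other genes among the 206694 searched. The whole last exon of the longest CAPN12 transcript, of 320 bases, is contained in an ACTN4 transcript as its reverse complement. Of the 12 annotated CAPN12 transcripts 8 share exonic bases with ACTN4. The longest, of 2762 bases and 21 exons, shares 18% of its length, whereas shorter ones of 896, 1046 and 488 bases share 87.2%, 83.0% and 77.3%. The transcripts behind the deposited TPM of CAPN12, and whether strand was used, are not given in the sources used here.

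**Figure D2:**
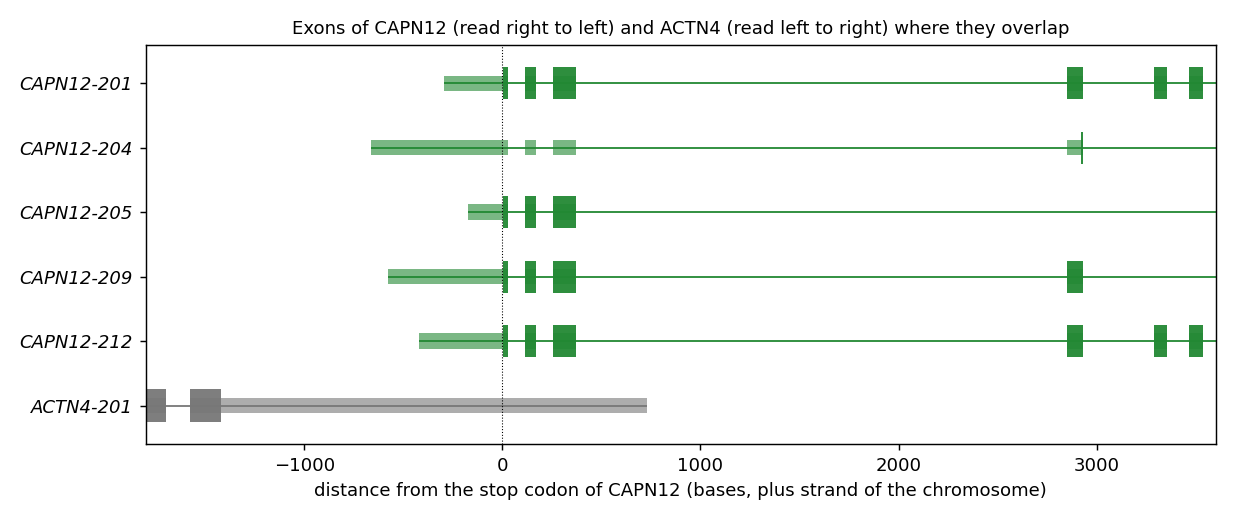
Exons of 5 CAPN12 transcripts (green, read from right to left) and of 1 ACTN4 transcript (grey, read from left to right) around the stop codon of CAPN12, drawn to scale in bases, with coding parts tall and non-coding parts low. The last exon of ACTN4 covers the end of each of the 5 CAPN12 transcripts shown.

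ACTN4 moved the other way in si-FGF9. Its TPM was 132, 190 and 187 in NG and 54.4, 49.5 and 65.3 in si-FGF9. The groups did not overlap, and ACTN4 fell by 1.56 ± 0.26 (SE) on the log2 scale (limma, Benjamini-Hochberg adjusted p = 0.000191), and by 1.44 after the correction for GC content. The sum of both genes was 133 to 190 TPM in NG and 161 to 194 TPM in si-FGF9, so that the sums overlapped. In HG it was 154 to 156 TPM. With HG+OE-FGF9 it was 87.1 and 82.4 TPM in replicates 1 and 2 and 157 TPM in replicate 3. TPM is scaled by gene length, so that these sums cannot show whether reads were shifted between both genes. CAPN12 made up at most 0.264% of that sum in NG and between 66.4% and 69.3% in si-FGF9.

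Within the split groups, ACTN4 was lower in the libraries in which CAPN12 was high. In HG, ACTN4 was at 155, 136 and 156 TPM, lowest in replicate 2, in which CAPN12 was high. In HG+OE-FGF9 it was at 77.3, 72.4 and 157 TPM, and replicates 1 and 2, in which CAPN12 was near 10 TPM, were lower than replicate 3. In NG replicate 1, however, ACTN4 was at 132 TPM, below HG replicate 2, with CAPN12 at 0.35 TPM. HG replicate 2 was also the farthest of its group from NG for 65.0% of all genes tested. HG+OE-FGF9 replicate 3 was the nearest of its group for 71.5%. ACTN4 did not pass the test between HG and NG, at -0.17 ± 0.26 (adjusted p = 0.611 by limma), or between HG+OE-FGF9 and HG, at -0.63 ± 0.26 (adjusted p = 0.141). How far reads of the shared bases set the TPM of CAPN12 was not tested.

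**Figure D3:**
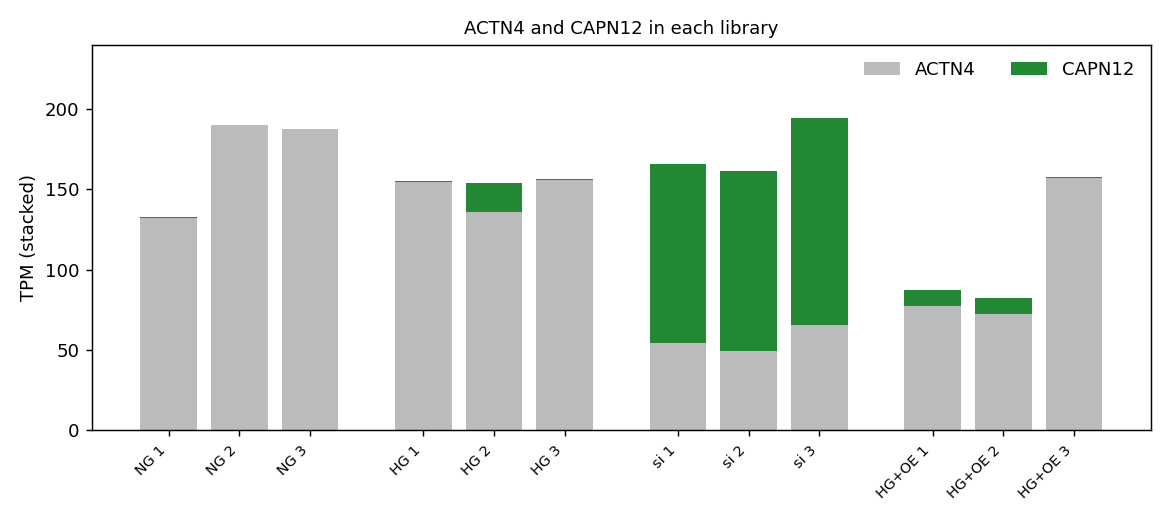
TPM of ACTN4 (grey) and CAPN12 (green) stacked for each of the 12 libraries, on a linear axis from 0. CAPN12 is visible in the 3 si-FGF9 libraries, in HG replicate 2 and in replicates 1 and 2 of HG+OE-FGF9, and the grey part is lower in these libraries than in the others of their group or, for si-FGF9, than in NG.

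The other genes next to CAPN12 did not share its pattern. LGALS7 and LGALS7B, which encode galectin 7, were listed at 0 in every library, and LGALS4 (galectin 4) stayed at or below 0.67 TPM. ECH1, a peroxisomal and mitochondrial enzyme of fatty acid breakdown, had 127.3 ± 8.37 TPM in NG and 129.7 ± 19.03 in si-FGF9 and did not pass the test. EIF3K, a subunit of a translation initiation factor, had 264.9 ± 23.1 TPM in NG and 447.9 ± 17.6 in si-FGF9, a difference of 0.76 that stayed below the fold threshold, but passed it with 1.26 after the correction for GC content. HNRNPL, a splicing regulator, fell by 1.44 in si-FGF9 (limma, Benjamini-Hochberg adjusted p = 7.38e-05), from 251.4 ± 8.70 to 93.2 ± 15.5 TPM, and by 0.78 after the correction, short of the fold threshold. In HG+OE-FGF9 its TPM was 142, 146 and 257 in rising order, so that 1 library stood apart, as for ACTN4. A split of that group was thus not particular to ACTN4. AC022144.1, an antisense gene within CAPN12 with 225 shared exonic bases, stayed at or below 0.55 TPM.

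The 5 genes whose log2(TPM + 1) followed that of CAPN12 most closely over the 12 libraries were ENSG00000255114, SUPT5H, EEF1D, ARAF and ERGIC3, with Pearson's r of 0.964, 0.963, 0.959, 0.956 and 0.954. The libraries share their groups, and the 3 si-FGF9 libraries were the high points, so that no p is given. ENSG00000255114 had group means of 0 TPM in NG and 1.08 in HG, and of 4.71 with si-FGF9 and 1.81 with HG+OE-FGF9. SUPT5H, a transcription elongation factor, went from a mean of 69.2 TPM in NG to 158 TPM in si-FGF9, and EEF1D, a translation elongation factor, from 484 to 1216 TPM. The rises of SUPT5H and EEF1D were much smaller in proportion than that of CAPN12.

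CAPN2 was the main catalytic calpain of the NG cells. It made up 81.3% to 83.8% of the summed TPM of the 7 catalytic genes in NG, and CAPN1 between 4.76% and 6.9%. The order of the NG means was CAPN2 (244.2 ± 22.3 TPM), CAPN7 (18.2 ± 3.64), CAPN1 (18.01 ± 2.45), CAPN5 (7.39 ± 0.445), CAPN15 (4.80 ± 0.841), CAPN10 (3.63 ± 0.2) and CAPN12 (0.17 ± 0.175). CAPN7 and CAPN1 overlapped in their NG values, and the lowest value of CAPN15, 3.85 TPM, lay just above the highest of CAPN10, 3.83 TPM, a gap smaller than the SD of either. In si-FGF9 CAPN2 and CAPN12 were close to each other, with CAPN2 at 36.8% to 49.1% of the sum and CAPN12 at 37.8% to 45.6%. The sum itself was 277 to 321 TPM in NG and 283 to 294 TPM in si-FGF9, but 165 to 193 TPM in HG and 150 to 167 TPM with HG+OE-FGF9.

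CAPN2 was lower in the 3 other groups than in NG. Its TPM was 269, 236 and 227 in NG and 126, 86.1 and 151 in HG. It was 144, 134 and 104 with si-FGF9 and 92.2, 95.3 and 116 with HG+OE-FGF9. Every NG library was above all 9 others. Between HG and NG, CAPN2 fell by 1.04 ± 0.20 (SE) on the log2 scale (limma, Benjamini-Hochberg adjusted p = 0.00205). Its fall was 0.39 after the correction for GC content, which ended the call, and the fold was also below the threshold without HG replicate 2 (-0.82) and without NG replicate 1 (-0.97). In bulk RNA, less RNA of a gene per cell cannot be told apart from fewer cells that make it. In si-FGF9 the log2 difference of CAPN2 from NG was -0.94 and turned to 0.13 after the correction.

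CAPN1 did not follow CAPN2. Its TPM was 15.3, 20.1 and 18.7 in NG and 31.1, 38.0 and 15.4 in HG. It was 20.2, 20.8 and 27.6 with si-FGF9 and 28.5, 25.4 and 24.4 with HG+OE-FGF9. HG replicates 1 and 2 were high, but HG replicate 3 lay within the NG range. The log2 difference was 0.53 ± 0.27 for HG versus NG and -0.02 ± 0.27 between HG+OE-FGF9 and HG, and did not pass the test (limma, Benjamini-Hochberg adjusted p = 0.124 and 0.973). With median-of-ratios scaling, which sets the median gene rather than the sum equal between libraries, the first was 1.02 and passed. The ratio of CAPN2 to CAPN1 ranged from 11.8 to 17.6 in NG and from 2.27 to 9.83 in HG, so that these groups did not overlap, and it was 3.76 to 7.15 with si-FGF9 and 3.24 to 4.76 with HG+OE-FGF9. CAPN2 has a GC content of 44.7% in its longest transcript and CAPN1 of 60.5%, and the part of GC content in this ratio was not tested.

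The partner and the inhibitor of the conventional calpains lay on opposite sides of NG in the other groups, in TPM before the correction for GC content. CAPNS1, the small subunit, had a TPM of 176, 214 and 243 in NG and 416, 514 and 263 in HG. It was 336, 325 and 467 with si-FGF9 and 336, 319 and 325 with HG+OE-FGF9. All 9 libraries outside NG were above the NG libraries, with HG replicate 3 the closest. Between HG and NG the log2 difference was 0.87 ± 0.23 (limma, Benjamini-Hochberg adjusted p = 0.00798), below the fold threshold, and 0.67 after the correction for GC content. Without HG replicate 3 it was 1.14 and passed. In si-FGF9 the difference from NG was 0.82, and 0.76 after the correction. Between HG+OE-FGF9 and HG, CAPNS1 was at -0.23 ± 0.23 (limma, Benjamini-Hochberg adjusted p = 0.52), and at -0.28 after the correction.

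CAST, which encodes calpastatin, had a TPM of 106, 100.43 and 90.3 in NG and 59.9, 37.5 and 61.3 in HG. It was 42.6, 39.9 and 31.0 with si-FGF9 and 27.8, 26.0 and 42.8 with HG+OE-FGF9. NG was again above all 9 others. The log2 difference was -0.92 ± 0.23 for HG versus NG (limma, Benjamini-Hochberg adjusted p = 0.00653), short of the fold threshold, and -0.03 after the correction for GC content. Without HG replicate 1 or replicate 3 it was -1.02 and -1.04 and passed. For si-FGF9 against NG it was -1.37, and 0.01 after the correction. CAST has a GC content of 42.1% and CAPNS1 of 61.4%.

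The difference of CAST between HG+OE-FGF9 and HG was -0.70 ± 0.23 (limma, Benjamini-Hochberg adjusted p = 0.0753), and -0.47 after the correction, with HG+OE-FGF9 replicate 3 inside the HG range. The end of CAST overlaps ERAP1, an aminopeptidase gene on the other strand, with 299 shared exonic bases. ERAP1 fell in every comparison, with log2 differences of -1.56 between HG and NG, -2.52 between si-FGF9 and NG and -1.12 between HG+OE-FGF9 and HG (limma, Benjamini-Hochberg adjusted p = 0.00173, 1.84e-05 and 0.0323), of which none reached the fold threshold after the correction. Transcripts of CAST also share runs of 50 bases with 246 other genes, and how reads from these runs were assigned is not given in the sources used here.

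The TPM of CAPNS1 divided by that of CAPN1 and CAPN2 together was 0.619 to 0.989 in NG and 1.58 to 4.14 in HG. It was 2.04 to 3.55 with si-FGF9 and 2.32 to 2.79 with HG+OE-FGF9. The NG ratios lay below those of each other group. CAPN1 and CAPN2 together were 2.55 to 2.72 times CAST in NG and 2.63 to 3.31 times in HG, which overlap. They were 3.87 to 4.24 times CAST with si-FGF9 and 3.28 to 4.64 times with HG+OE-FGF9. The TPM ratio to CAST thus lay within the NG range in HG replicates 1 and 3. It was above that range in HG replicate 2 and in the 6 libraries of si-FGF9 and HG+OE-FGF9. Both ratios are of RNA, from TPM before the correction for GC content. After it, the log2 differences between si-FGF9 and NG were 0.13 for CAPN2, 0.32 for CAPN1, 0.01 for CAST and 0.76 for CAPNS1. The part of GC content in these ratios was not tested.

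Among the less studied calpains, CAPN7 had the clearest fall. CAPN7, which binds proteins of the endosomal sorting machinery, had a TPM of 22.2, 17.2 and 15.1 in NG and 6.14, 3.03 and 10.6 in HG. It was 3.26, 3.62 and 2.58 with si-FGF9 and 2.36, 2.84 and 5.49 with HG+OE-FGF9. No library of the 3 other groups reached the NG range. Between HG and NG it fell by 1.45 ± 0.35 (limma, Benjamini-Hochberg adjusted p = 0.00576). This fall was 0.39 after the correction for GC content and no longer passed. In si-FGF9 the log2 difference from NG was -2.20, and -0.60 after the correction. Between HG+OE-FGF9 and HG it was -0.66 ± 0.35 and did not pass, but without HG replicate 2 it was -1.05 and passed. With 39.5%, CAPN7 has the lowest GC content of the 9 genes.

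CAPN5, CAPN10 and CAPN15 varied little. CAPN5 ranged from 5.26 to 7.66 TPM over the 12 libraries, CAPN10 from 3.43 to 6.04 TPM and CAPN15 from 3.85 to 8.61 TPM. None of these 3 genes passed the test in HG versus NG, with log2 differences of -0.18, 0.10 and 0.44, or in HG+OE-FGF9 versus HG, with -0.11, 0.39 and 0.05. The directions were not stable for these small differences. In HG versus NG, CAPN10 and CAPN15 turned to -0.06 and -0.05 after the correction for GC content, and CAPN5 turned to 0.26 with median-of-ratios scaling. CAPN10, a gene long studied in type 2 diabetes, was above every HG library in the 3 HG+OE-FGF9 libraries (limma, Benjamini-Hochberg adjusted p = 0.162).

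CAPN10 shares 654 exonic bases with GPR35, a receptor gene on the same strand. GPR35 rose by 1.2 in si-FGF9 (limma, Benjamini-Hochberg adjusted p = 0.000384), from a mean of 1.07 to 3.84 TPM, and by 1.12 after the correction. The log2 difference of CAPN10 in si-FGF9 was 0.36. At the start of CAPN1, the antisense gene AP003068.2 shares 433 exonic bases and ranged from 0.35 to 1.56 TPM, far below CAPN1. OMP, MIR5587, MIR3176 and Z97986.1, whose spans overlap CAPN5 or CAPN15, were listed at 0 in every library, and AD001527.1, AC104123.1 and AC020900.1, which overlap CAPNS1 or CAST, stayed at or below 0.39 TPM.

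The remaining 8 calpain genes of the list did not reach the minimum TPM. CAPN3, the muscle calpain, was the highest with at most 0.76 TPM, CAPN6, CAPN8, CAPN11, CAPN13 and CAPN14 stayed at or below 0.08 TPM, and CAPN9 and CAPNS2 were listed at 0 in every library. Calpains that reached the minimum were taken as members, so that the low level of these 8 genes follows from that choice.

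In HG versus NG, 2 of the 9 genes were called, CAPN2 and CAPN7, both lower. Over all genes tested 22.7% were called lower and 1.65% higher, so that 2 of 9 is near the background. The median log2 difference of the 9 genes was 0.10, beside -0.39 for all genes tested. The HG and NG values did not overlap for 6 of the 9 genes, with CAPN12, CAPN15 and CAPNS1 higher and CAPN2, CAPN7 and CAST lower, beside 10.7% and 46.5% of all genes. For CAPN12 the gap was only that between 0.36 and 0.35 TPM, where the counting error is not known. After the correction for GC content 0 of 9 genes were called, although CAPN2 and CAPNS1 had an unadjusted p under 0.05 in limma, and 3.07% of all genes were called lower and 3.78% higher. With median-of-ratios scaling the 2 called genes were CAPN1 and CAPNS1, both higher, so that the number stayed and the genes changed. That scaling moved the median of all genes tested from -0.39 to 0.00 and the split of all called genes from 242 higher and 3328 lower to 1063 and 1240. For si-FGF9 versus NG it moved the median from -0.79 to -0.01.

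HG replicate 2 lay farthest from the NG mean of the 3 HG libraries for 8 of the 9 genes, and HG replicate 3 nearest for 8. Over all genes tested HG replicate 2 was the farthest for 65.0% and HG replicate 3 the nearest for 58.7%. The Spearman's rho between GC content and the deviation from the NG mean was 0.59, 0.67 and 0.47 in HG replicates 1, 2 and 3. In HG+OE-FGF9 it was 0.57, 0.56 and 0.58, although replicate 3 was there the nearest to NG for most genes. The NG libraries, each set against the mean of the other NG libraries, had -0.45, 0.2 and 0.45.

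In si-FGF9 against NG, the values of the groups were apart for all 9 genes. CAPN12, CAPN1, CAPN10, CAPN15 and CAPNS1 were higher and CAPN2, CAPN5, CAPN7 and CAST lower, beside 14.3% of all genes higher without overlap and 62.1% lower. The median log2 difference of the 9 genes was 0.28, beside -0.79 for all genes tested. Of the lower genes CAPN2, CAPN7 and CAST have a GC content of 39.5% to 44.7% in their longest transcript and CAPN5 of 58.0%, and the 5 higher ones have 60.3% to 68.8%. After the correction CAPN12, CAPNS1, CAPN1 and CAPN10 were at 6.49, 0.76, 0.32 and 0.37, CAPN7 and CAPN5 were at -0.60 and -0.10, and CAPN2, CAST and CAPN15 turned to 0.13, 0.01 and -0.30. With median-of-ratios scaling CAPN2 and CAPN5 turned to 0.09 and 0.63, CAPN7 and CAST were at -1.30 and -0.35, and CAPN1, CAPN10, CAPN15 and CAPNS1 were at 1.30, 1.18, 1.13 and 1.85.

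In HG+OE-FGF9 versus HG, 0 of the 9 genes were called by limma, while 2 of them, CAST and CAPN10, had an unadjusted p under 0.05. Over all genes tested 2.94% were called higher and 2.67% lower. CAPN10 was the only one of the 9 genes whose groups did not overlap, beside 12.2% of all genes higher without overlap and 9.95% lower. After the correction 0 of 9 were called as well, CAST and CAPN10 again with an unadjusted p under 0.05, beside 3.03% of all genes called higher and 2.18% lower. The median log2 difference was -0.11, and -0.13 for all genes. HG+OE-FGF9 replicate 3 was the nearest of its group to NG for 7 of the 9 genes, and for 71.5% of all genes tested.

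**Figure D4:**
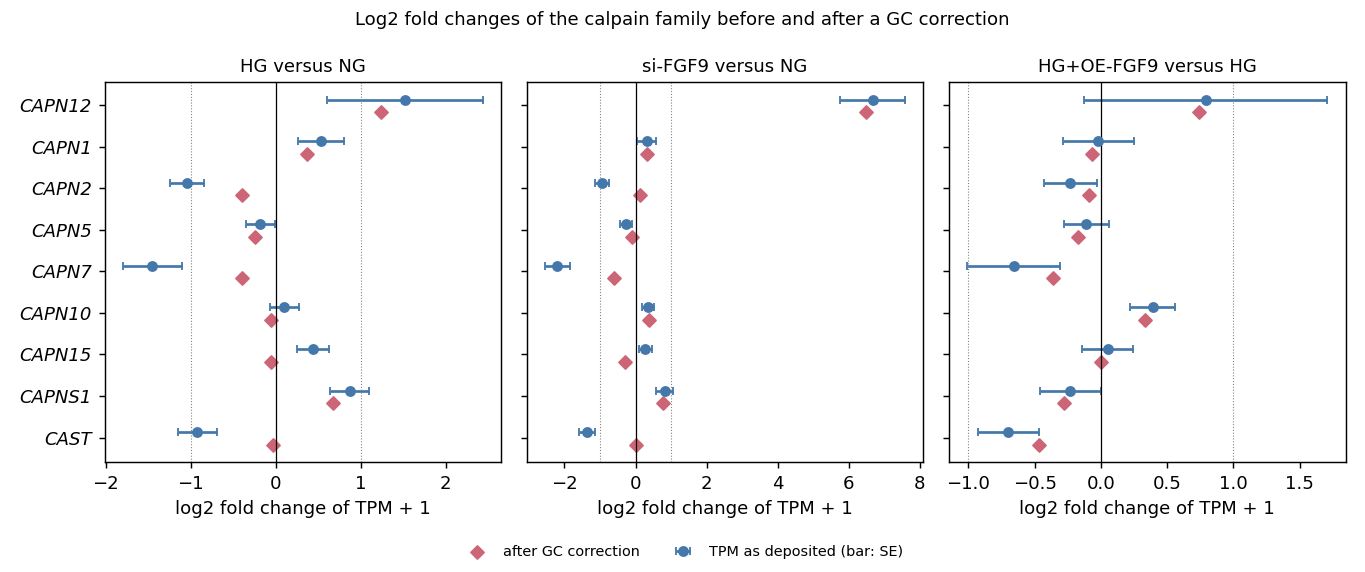
Log2 fold changes of TPM + 1 of the 9 genes in 3 comparisons, from the deposited TPM (circles, with the SE of limma as bar) and after the correction for GC content (diamonds), with dotted lines at 1 and -1 and a different horizontal scale in each panel. CAPN2, CAPN7 and CAST move towards 0 after the correction in HG versus NG and in si-FGF9 versus NG, and CAPN12 stays near 6.5 in si-FGF9 versus NG.

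The genes of proteins that calpains cut were called lower and not higher on the TPM scale in HG and si-FGF9, where most called genes of the whole set were lower. This did not hold under another scaling. Of 23 genes of known substrates, all tested, 0 rose and 7 fell in HG versus NG, beside 1.65% and 22.7% of all genes. These counts are near the background. The median was -0.54, beside -0.39 for all genes, and -0.23, beside -0.02, after the correction. ITGB1, the integrin beta 1 chain, fell by 2.20 from 721 ± 73.8 to 176 ± 96.8 TPM (limma, Benjamini-Hochberg adjusted p = 0.00281). For HG and si-FGF9 the study reported the opposite direction by RT-qPCR, with ITGB1 mRNA raised. CTNNB1 (beta-catenin), EGFR (the EGF receptor) and PTK2 (the focal adhesion kinase) had log2 differences of -1.65, -1.41 and -1.24. After the correction 2 of the 23 were called, both lower, beside 3.07% of all genes lower and 3.78% higher. They were ITGB1 at -1.16 and CDK5R1, a kinase activator named for this count after its value was seen, at -1.01. With median-of-ratios scaling 2 of the 23 were called higher and 2 lower. The call of PTK2 was lost without HG replicate 2, at -0.92.

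In si-FGF9 versus NG 0 of the 23 substrate genes rose and 13 fell, with a median of -1.25 beside -0.79 (-0.47 beside -0.07 after the correction), and 42.2% of all genes tested were called lower and 5.36% higher. ITGB1 fell by 3.05 to 90.6 ± 32.5 TPM. The log2 differences of CTNNB1, of PTPN1, a tyrosine phosphatase of the endoplasmic reticulum, and of EGFR were -2.76, -2.47 and -1.80. After the correction 6 fell and 1 rose, and with median-of-ratios scaling 4 fell and 2 rose. The one that rose, SPTAN1, is the alpha spectrin whose cleavage is a standard readout of calpain activity, with 1.10 after the correction, and was named after its value was seen. In that corrected comparison 12% of all genes were called lower and 12.3% higher. Between HG+OE-FGF9 and HG none of the 23 was called, and ITGB1 alone, at -1.05, after the correction, beside 2.18% of all genes called lower.

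Genes of calcium entry and stores, which set the signal that calpains need, showed a similar picture. Of 22 genes 20 were tested, and in HG versus NG 0 rose and 10 fell, beside 1.65% and 22.7% of all genes. The median was -0.94, beside -0.39 for all genes, and -0.21, beside -0.02, after the correction. TRPM7, a channel with a kinase domain, fell by 1.97 from 8.74 ± 0.34 to 1.56 ± 0.802 TPM. The log2 differences of ATP2B1, a calcium pump of the plasma membrane, of ITPR2, a receptor for inositol trisphosphate, and of TRPC1, a cation channel, were -1.90, -1.70 and -1.68. With median-of-ratios scaling 4 of the 20 were called lower and 2 higher. Only ITPR3 was called after the correction, at -1.25, and it was named after its value was seen. Over all genes 3.07% were then called lower and 3.78% higher.

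In si-FGF9 versus NG 2 of these 20 genes rose and 10 fell, beside 5.36% and 42.2% of all genes. The median was -1.24, beside -0.79 for all genes, and -0.14, beside -0.07, after the correction. The log2 differences of TRPM7, of ATP2C1, the calcium pump of the Golgi, and of TRPC1 were -2.61, -2.57 and -2.54. ATP2A2, the pump of the endoplasmic reticulum, was at -2.51 and went from 72.0 ± 4.58 to 11.9 ± 1.16 TPM. The 2 that rose were the mechanically gated channel PIEZO1 by 1.38 and the store-operated channel ORAI1 by 1.07, both named after their values were seen. After the correction 1 rose, PIEZO1, and 4 fell, and with median-of-ratios scaling 4 rose and 8 fell. Between HG+OE-FGF9 and HG 0 of the 20 were called, before and after the correction, beside at most 3.03% of all genes in either direction.

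Of 12 genes of membrane repair, in which calpains take part, 3 fell in HG versus NG and 0 rose, beside 22.7% and 1.65% of all genes. The list median was -0.55, beside -0.39 for all genes, and 0.05, beside -0.02, after the correction. They were PDCD6IP (ALIX), MYOF (myoferlin) and ANXA1 (annexin A1), with log2 differences of -1.79, -1.54 and -1.35. After the correction PDCD6IP and ANXA1 were at -0.75 and -0.28 and lost their calls, which left MYOF, beside 3.07% of all genes lower and 3.78% higher. ANXA1 also lost its call without HG replicate 2 (-0.93) or NG replicate 1 (-1.21). In si-FGF9 versus NG 7 fell and 0 rose, among them MYOF, PDCD6IP, ANXA1 and ANXA5 (annexin A5) at -2.87, -2.52, -2.46 and -1.90, beside 42.2% of all genes called lower and 5.36% higher. The list median was -1.30, beside -0.79 for all genes, and -0.28, beside -0.07, after the correction. MYOF alone then stayed called lower and 1 gene was called higher, beside 12% and 12.3% of all genes. PDCD6IP, ANXA1 and ANXA5, at -0.95, -0.86 and -1.0, lost their calls. With median-of-ratios scaling these counts were 2 lower and 1 higher in HG, and 3 lower and 3 higher in si-FGF9. MYOF and AHNAK, a giant scaffold protein, also fell between HG+OE-FGF9 and HG, beside 2.67% of all genes called lower, at -1.21 and -1.29 (limma, Benjamini-Hochberg adjusted p = 0.0346 and 0.0158), but MYOF was no longer called without HG replicate 1 (-1.04) or without HG+OE-FGF9 replicate 1 (-1.03) or 2 (-0.97). After the correction MYOF was called in all 3 comparisons, at -1.04, -2.0 and -1.15. Of 4 penta-EF-hand genes, relatives of the calcium-binding domain of calpains, GCA (grancalcin) fell by 1.21 in HG and by 2.11 in si-FGF9, and lost both calls after the correction, at -0.09 and -0.45. Its call in HG was also lost without any 1 library except HG replicate 3, with -0.82 without HG replicate 2. After the correction SRI (sorcin) of this list and S100A11 of the repair list rose in si-FGF9, by 1.32 and 1.31, both named after their values were seen.

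**Figure D5:**
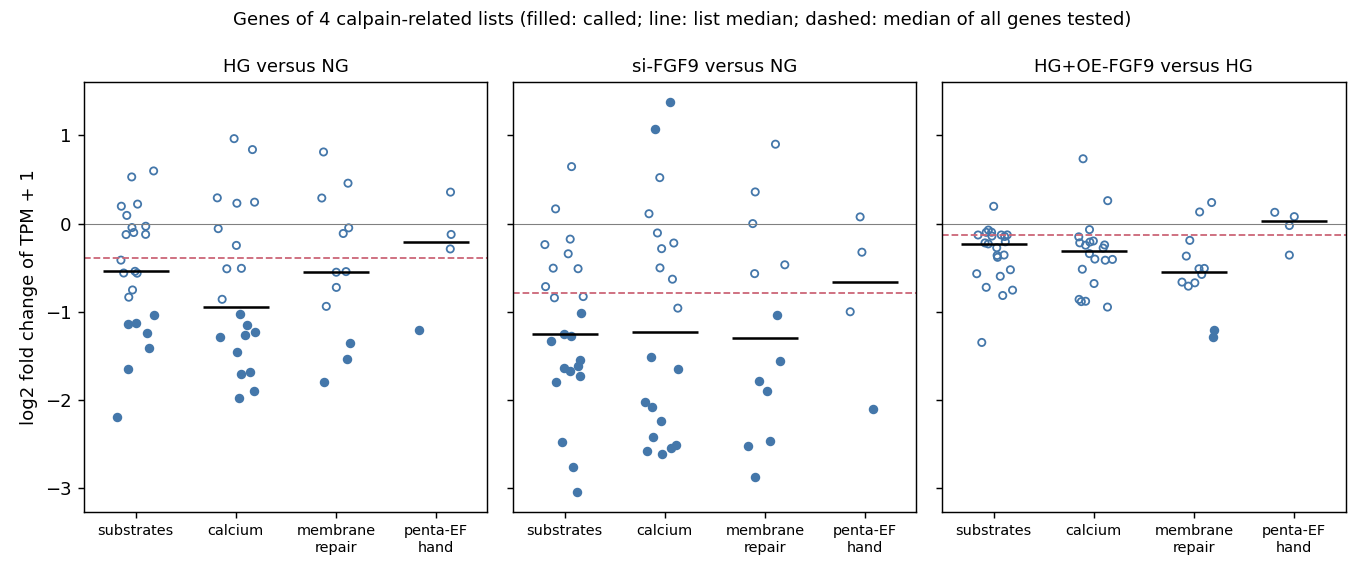
Log2 fold changes of TPM + 1 for genes of 4 lists related to calpains in 3 comparisons, with filled points for called genes, a line for the median of the list and a dashed line for the median of all genes tested. The list medians of substrates, calcium genes and membrane repair genes lie below the dashed line in each comparison, all before the correction for GC content. After it the repair median of HG versus NG was 0.05, above the -0.02 of all genes.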

How the data were processed

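RNA of HK2 cells was sequenced in 12 libraries. The authors deposited TPM for each Ensembl gene, with the same sum in each library. No quantifier or annotation for human genes is given in the sources used here, and the submitters' processing notes list Bowtie 0.12.2 and mm8, a mouse build. Depth is unknown, so that precision was judged from 3 libraries a group.

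limma 3.58.1 in R 4.3.3 was fitted to log2(TPM + 1), with an empirical Bayes trend and the group as the only term, over the 12 libraries and the 14639 genes that reached 1 TPM in 3 libraries. A call needed an absolute log2 fold change of 1 and p under 0.01. The pseudocount of 1 understates changes of low genes. With 3 against 3 libraries, an exact permutation test cannot go below p = 0.1. Simulated data were used to check the fit. The correction for GC content subtracted a natural spline with 5 degrees of freedom per library, over 14191 genes with GENCODE release 29 annotation on GRCh38. The authors' build may differ. Of 62703 identifiers 62625 were matched.

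Members and lists were chosen with earlier results of these data known. The genes named were the members, FGF9, the other calpains, the neighbours and overlapping genes of members, the 5 genes most correlated with CAPN12, and up to 4 called genes with the largest change per list and comparison. Alternatives were no filter, a 6-library fit, the replicate block, p under 0.05, adjusted p under 0.05, a pseudocount of 0.1, quantile normalization, median-of-ratios scaling, the correction for GC content and leaving out each library. No 2 libraries held identical values. Cell markers of other types (9 genes) summed to 132.4 to 144.3 TPM in NG and 119.7 to 128.8 in HG. Their sum was 110.3 to 133.8 in si-FGF9 and 159.9 to 161.3 in HG+OE-FGF9. CD68, a lysosomal gene, gave the most. COL1A1 ranged from 1.54 to 7.81 TPM and DCN from 0.22 to 3.91 TPM. COL1A2 stayed at or below 0.22 TPM, and PTPRC, PECAM1, CDH5, UMOD and NPHS1 at or below 0.1 TPM.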

Additional observations from a re-analysis of the deposited data

How the results depend on the processing

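For HG versus NG the 3570 genes called became 2303 with median-of-ratios scaling, 2236 with quantile normalization, 971 after the correction for GC content and 969 with that correction and the replicate block together, a combination chosen after the data were seen. For si-FGF9 versus NG 6966 became 3452 and 3426 in these last settings. The splits into higher and lower were 1016 and 1220 with quantile normalization for HG versus NG, and with median-of-ratios scaling 2774 and 2613 for si-FGF9 versus NG and 505 and 281 for HG+OE-FGF9 versus HG. Leaving out single libraries gave 2238 to 4746, 6690 to 6961 and 549 to 1617 genes in the 3 comparisons, where leaving out HG replicate 2 gave the 2238 of the first and 1360 in the third, and HG+OE-FGF9 replicate 3 the 1617.

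Of the 9 calpain family genes, 2 were called in HG versus NG, 1 with quantile normalization (CAPN1), 0 after the correction for GC content with and without the block, and 1 to 4 with a library left out (4 without HG replicate 3). In HG+OE-FGF9 versus HG 0 became 0 to 2, the 2 being CAPN7 and CAPN12 without HG replicate 2. The direction turned in HG versus NG for CAPN5 (0.26 with median-of-ratios scaling, 0.43 with quantile normalization), CAPN10 (-0.06 after the correction, with and without the block) and CAPN15 (-0.05 likewise). In HG+OE-FGF9 versus HG it turned for CAPN1 (0.12 and 0.05 under both scalings, and -0.39 to 0.24 with 1 library left out), CAPN5 (0.01 and 0.03 under both scalings) and CAPN15 (-0.08 to 0.13 with 1 library left out). The cause was not tested. Of 846 log2 differences of calpain family and named list genes under the alternatives, 733 kept their direction and call or, where not tested, moved by less than the SD, 63 lost a call, 8 gained one, 27 untested ones moved by more, and 15 turned.

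The replicate numbers did not pair the libraries. Of 18 pairs with the same number 3 had a correlation of deviations over 0.1 (range -0.44 to 0.25), and 3 of 12 libraries correlated best with their own number. With the replicate block 3518, 6922 and 793 genes were called, and of the calpain family genes 2 in HG versus NG and 0 between HG+OE-FGF9 and HG. Count tests were not run, since the files hold TPM. Depth is unknown, so that the counting error of low genes such as CAPN12 in NG is not known.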
